A study of Mus musculus with 4 samples.

Results

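DNA replication genes, 37 in all, were followed in RNA libraries, labelled as colon, from mice with and without Usp25, which encodes a deubiquitinating enzyme. The members were picked by name for their known roles in origin licensing, helicase activation, fork movement, nucleotide supply, entry into S phase and maintenance of DNA methylation. They were chosen with earlier results of these data known. Each has a row among the 24394 genes used from the deposited table. Of the 37 genes, 35 reached 1 FPKM (a fragment count scaled to transcript length and library size) in at least 2 mice and were tested beside all 12103 genes that did so. Orc1 and Pole did not and are given as levels only.

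The study has 4 polyA RNA-seq libraries, those of mice WT-139 and WT-140, with genotype Usp25+/+ (n = 2), and those of mice KO-826 and KO-850, with genotype Usp25-/- (n = 2). Each animal was 8 weeks old, was of the C57BL/6 strain and drank dextran sulfate sodium (DSS, an agent that injures the gut lining) at 2.5% over 5 days, with normal water over the last 2 days. No mouse without DSS is among these samples, so every difference here is between genotypes after DSS. Per the labels, RNA came from a whole piece of gut near the anus, so fewer dividing cells and less RNA of a gene per cell cannot be told apart. How the Usp25 allele was made, and whether mice shared a litter or cage, is not given in the sources used here.

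Before a cell copies its DNA, the origin recognition complex, Cdc6 and Cdt1 load the Mcm2 to Mcm7 helicase ring onto origins, a step called licensing. At the start of S phase Cdc45 and the GINS complex join the ring, the helicase unwinds DNA, and polymerases extend new strands on the sliding clamp Pcna while ribonucleotide reductase and its partners make deoxynucleotides. Many of these genes are transcribed under control of E2F factors, so their mRNAs rise and fall together with proliferation. In the gut, dividing cells sit mainly at the base of the crypts, and in inflamed tissue immune and stromal cells can divide too.

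Usp25 itself stood at 38.5 and 16.6 FPKM in the Usp25+/+ pair and at 2.65 and 1.71 FPKM in the Usp25-/- pair, as the labels say. Its difference in mean log2(FPKM + 1) was -3.07 with a limma adjusted p of 0.968, so even this gene was not called. Of all 12103 tested genes, 0 reached an adjusted p of 0.05 (limma, Benjamini-Hochberg), and 400 had an unadjusted p under 0.05. Mouse WT-139 stood apart: over all tested genes its correlation with the other mice was 0.876 to 0.890, against 0.933 to 0.968 among those 3. Its summed FPKM over 7 neutrophil genes was 40228, against 711 to 1982 in the others. The colon label was not borne out by defining markers, since 7 of 10 colonocyte and goblet cell genes were below 1 FPKM in every mouse, with Aqp8 and Zg16 listed at 0. The other 3 were Krt20 (3.11 to 52.4 FPKM), Tff3 (7.25 FPKM in KO-850, listed at 0 elsewhere) and Vil1 (at most 1.46 FPKM). Lung surfactant Sftpb stood at 865 to 3284 FPKM, and of 6 genes of intestinal stem and transit cells, 3 were below 1 FPKM in every mouse, Lgr5 (at most 0.0484 FPKM) and Ascl2 (listed at 0) among them. The others were Olfm4, at 34.8 FPKM in WT-139 and below 1 FPKM elsewhere, Sox9 (0.913 to 2.71 FPKM) and Smoc2 (0.667 to 1.72 FPKM).

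Most DNA replication genes had higher mean levels in Usp25-/- mice, and none passed the test. Of the 35 tested members, 0 were called, where the share over all tested genes was 0%, and the adjusted p was 0.968 or above for each. Mean log2(FPKM + 1) was higher in Usp25-/- for 30 members and lower for 5, beside 53.6% of all tested genes that were higher. The groups did not overlap for 16 members. In 15 of these both Usp25-/- mice lay above both Usp25+/+ mice, beside 19.0% of all tested genes. Cdt1 alone lay below, beside 14.7%. Cdc6 passed the filter only through the Usp25-/- mice. Without genes of that kind in either direction, 29 of 34 members were higher (53.5% of all genes left) and 14 lay above with no overlap (18.3% of all genes left). The median log2 difference over the members was 0.33, beside 0.03 over all tested genes. It was 0.08 without mouse WT-139, beside -0.01 over all genes, and then 22 members were higher and 13 lower, beside 49.1% of all genes higher. As the set was chosen with earlier results of these data known, such shares only describe it.

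**Figure D1:**
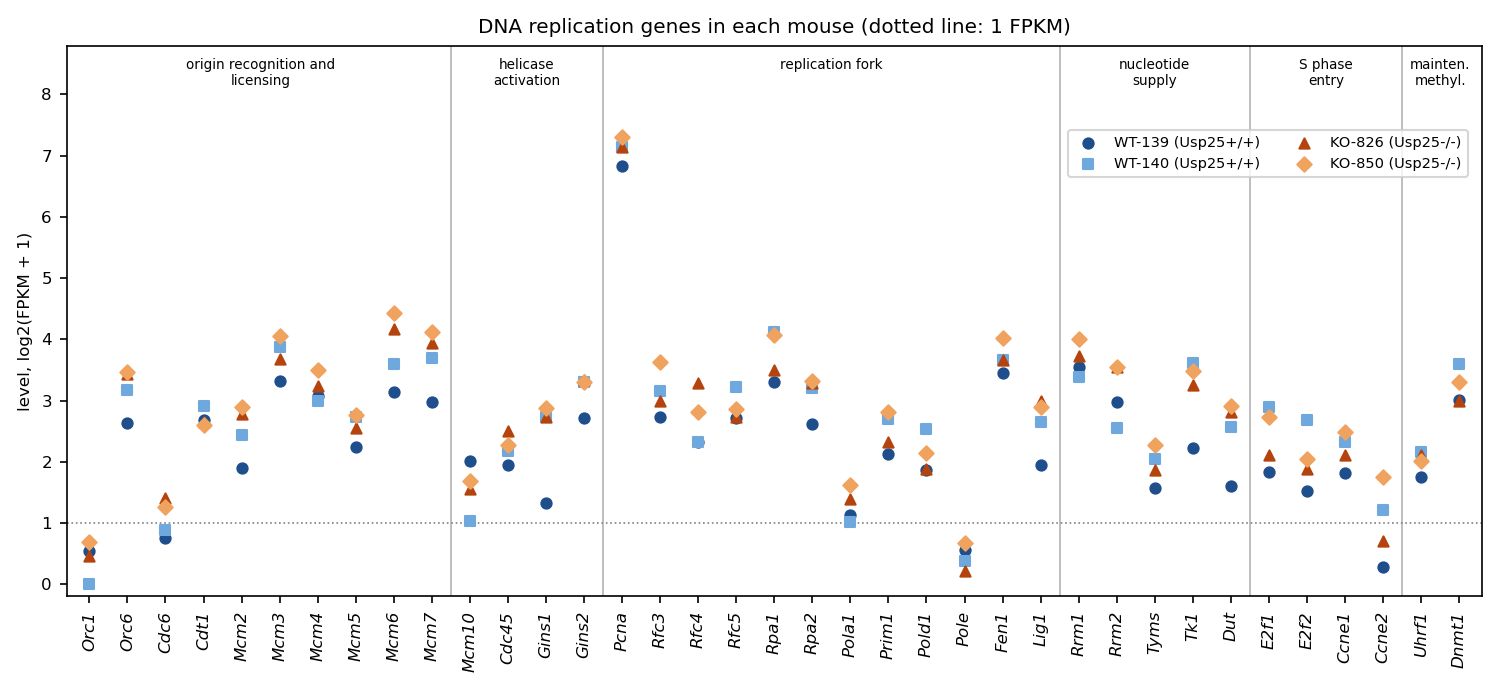
Level of each of the 37 replication genes in each mouse, with log2(FPKM + 1) as the vertical axis and genes, grouped by role, along the horizontal axis. Each point is 1 mouse: Pcna lies far above the rest in every mouse, Orc1 and Pole lie below 1 FPKM, and mouse WT-139 (dark circles) is the lowest point for 28 of the 35 tested genes.

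Mouse WT-139 stood low within the set. It held the lowest of the 4 values for 28 members, beside 39.2% of all tested genes, and it lay below both Usp25-/- mice for 32 members, beside 45.8%. Mouse WT-140 behaved differently. It lay below both Usp25-/- mice for 16 members (35.7% of all genes), above both for 9 (36.8% of all genes) and between them for 10. Mice of the same genotype also differed from each other. WT-140 was above WT-139 for 30 members (54.9% of all genes), and KO-850 was above KO-826 for 27 (51.4% of all genes). KO-850 held the highest value for 19 members (17.6% of all genes). WT-139 held it for Mcm10 alone (29.7% of all genes).

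Summed over the 35 tested members, the level was 266 FPKM in WT-139, 367 in WT-140, 369 in KO-826 and 425 in KO-850. The sum in WT-140 was thus within 2 FPKM of that in KO-826, while WT-139 was the lowest of the 4. Mean log2(FPKM + 1) of the members was 2.40, 2.87, 2.87 and 3.06 in the same order. Over all tested genes that mean was 3.40, 3.41, 3.42 and 3.43, which is nearly level across the mice. The member in the middle of the set sat at percentile 30.9 of all tested genes in WT-139 and at percentile 41.2, 42.9 and 43.9 in WT-140, KO-826 and KO-850.

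Promoters of the members were read to show what the set shares beyond its function. RefSeq (GRCm38.p6) gives windows from 250 bases before to 50 bases after the start site for 32 of the 37 members, 40 windows in all. An E2F-type motif, TTTNNCGC or TTCCCGCC on either strand, was found in 18 of these 32 genes (56.3%) and in 12.9% of 9050 tested genes with a window. TTTNNCGC alone was in 15 members (46.9%, beside 9.72% of tested genes), TTCCCGCC in 6 (18.8%, beside 4.69%) and TTTGGCGC, a form of the first motif, in 7 (21.9%, beside 1.13%). CCAAT, the box bound by NF-Y, was in 20 members (62.5%, beside 42.4%). The CHR element TTTGAA, typical of genes of mitosis, was in 5 (15.6%, beside 14.2%). Of all 32851 windows in the RefSeq table, 5.17% hold TTTNNCGC, 2.19% TTCCCGCC, 0.514% TTTGGCGC, 37.4% CCAAT and 17.9% TTTGAA. A match is a run of letters and not a measured binding site.

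The stretches just before the start site of 6 members are printed below, 5′ to 3′ on the gene's own strand, to let the motif be seen in genes of different roles. Capitals mark TTTNNCGC and TTCCCGCC or their reverse complements, and Rrm2 is shown as a member without a match. The others printed each hold a match, which most members do not in this stretch, so the share printed does not stand for the set. They lie at chr1:128359706-128359875 (minus strand), chr8:75109339-75109508 (plus strand), chr11:98907981-98908150 (plus strand), chrX:93632156-93632325 (minus strand), chr7:102441525-102441694 (plus strand) and chr12:24708084-24708253 (plus strand) in GRCm38.p6.
Mcm6: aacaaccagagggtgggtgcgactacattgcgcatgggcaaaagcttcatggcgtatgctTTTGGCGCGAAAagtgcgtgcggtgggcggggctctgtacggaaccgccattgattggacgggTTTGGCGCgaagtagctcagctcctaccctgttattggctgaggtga
Mcm5: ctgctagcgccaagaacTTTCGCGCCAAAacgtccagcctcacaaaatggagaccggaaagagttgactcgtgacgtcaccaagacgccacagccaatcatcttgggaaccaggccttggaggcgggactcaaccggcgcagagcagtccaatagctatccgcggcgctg
Cdc6: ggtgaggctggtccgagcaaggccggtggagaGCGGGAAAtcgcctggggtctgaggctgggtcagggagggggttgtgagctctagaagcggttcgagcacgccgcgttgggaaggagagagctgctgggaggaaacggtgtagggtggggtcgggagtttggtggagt
Pola1: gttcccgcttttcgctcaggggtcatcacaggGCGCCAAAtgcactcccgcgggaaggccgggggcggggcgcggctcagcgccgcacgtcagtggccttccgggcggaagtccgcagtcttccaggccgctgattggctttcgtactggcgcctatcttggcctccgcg
Rrm1: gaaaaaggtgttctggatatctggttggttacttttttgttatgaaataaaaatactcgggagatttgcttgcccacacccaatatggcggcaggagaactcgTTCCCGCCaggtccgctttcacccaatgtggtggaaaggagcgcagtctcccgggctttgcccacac
Rrm2: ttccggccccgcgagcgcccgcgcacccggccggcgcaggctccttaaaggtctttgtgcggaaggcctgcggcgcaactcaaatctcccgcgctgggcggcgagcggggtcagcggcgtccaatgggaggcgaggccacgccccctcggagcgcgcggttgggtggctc
Mcm6 holds 3 matches here, the overlapping pair among them, and Mcm5 holds an overlapping pair of 2. Mcm6 had the largest log2 difference of the set (0.93) and Mcm5 a small one (0.17), while Rrm2, with no match in its window, had 0.78. Whether matches go with the differences was not tested over the members.

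Licensing genes included Mcm6, the member with the largest difference. Of 9 tested members, 8 had a higher mean log2 level in Usp25-/-, beside 53.6% of all tested genes. For 6 of them the groups did not overlap, beside 19.0% of all tested genes, and the median log2 difference was 0.51. Cdc6, whose own value is that median, passed the filter only through the Usp25-/- mice. Without it 7 of 8 were higher (53.5% of all genes left), 5 with no overlap (18.3% of all genes left), with a median of 0.44. Without WT-139, 6 of 9 were higher (49.1% of all genes) and the median was 0.34. Mcm6, a subunit of the helicase ring, stood at 7.83 FPKM in WT-139, 11.1 in WT-140, 17.0 in KO-826 and 20.5 in KO-850. Both Usp25-/- mice were above both Usp25+/+ mice, and its log2 difference was 0.93 ± 0.31 (SE) with a limma adjusted p of 0.968. Its unadjusted p, 0.0302, was the smallest of the members, and its difference without WT-139 was 0.70. It is found on chromosome 1, at 130228168 to 130256233 (mm9, minus strand), and overlaps no other annotated gene.

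Mcm7, another ring subunit, stood at 6.89, 11.9, 14.3 and 16.5 FPKM in WT-139, WT-140, KO-826, then KO-850. The groups did not overlap, and the log2 difference was 0.70 ± 0.35 (SE, limma adjusted p = 0.968), or 0.34 without WT-139. Mcm7 maps to chromosome 5 from 138605811 to 138613650 (mm9, minus strand), where 321 bases are shared with Ap4m1 and 64 with Cops6 on the other strand. Whether the authors' quantification used strand is not given in the sources used here, so reads in those stretches could belong to either gene. Mir25 and Mir93 share 84 and 88 bases with Mcm7 on the same strand, where strand cannot tell the genes apart. Mcm2 stood at 2.71 and 4.38 FPKM in the Usp25+/+ pair and at 5.91 and 6.43 FPKM in the Usp25-/- pair, again with no overlap. Its log2 difference was 0.68 ± 0.32 (SE, limma adjusted p = 0.968), or 0.41 without WT-139. Mcm2 maps to chromosome 6 from 88833469 to 88848774 (mm9, minus strand).

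The other ring subunits differed less. Mcm4 stood at 7.41 and 6.94 FPKM in the Usp25+/+ pair and at 8.46 and 10.3 FPKM in the Usp25-/- pair, a log2 difference of 0.34 with no overlap. Mcm3 stood at 8.98, 13.7, 11.8 and 15.6 FPKM and Mcm5 at 3.74, 5.61, 4.85 and 5.75 FPKM in WT-139, WT-140, KO-826, then KO-850. For these latter genes WT-140 lay between the Usp25-/- mice, and the differences of 0.27 and 0.17 became -0.01 and -0.07 without WT-139. The 6 subunits enter the ring in equal numbers, and their FPKM values, which are scaled to transcript length, were within a 3.12-fold to 3.56-fold range in each mouse. In Usp25+/+ mice the highest was Mcm3 and the lowest Mcm2. In Usp25-/- mice the highest was Mcm6 and the lowest Mcm5. Summed over the 6, the level was 37.6 and 53.7 FPKM in the Usp25+/+ pair and 62.3 and 75.1 FPKM in the Usp25-/- pair, with no overlap.

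Among the loaders, Orc6, a subunit of the origin recognition complex, stood at 5.18 and 8.05 FPKM in the Usp25+/+ pair and at 9.77 and 10.1 FPKM in the Usp25-/- pair (log2 difference 0.55). Cdc6, which brings the ring to the origin, stood at 0.678 and 0.856 FPKM against 1.64 and 1.41 FPKM (0.51). Both separated the groups. Cdc6 was below 1 FPKM in both Usp25+/+ mice and was tested only because both Usp25-/- mice passed the filter, so it had to differ and its place among the higher members is no support for them. Cdt1, the partner of Cdc6 in loading, went the other way, with 5.43 and 6.504 FPKM in the Usp25+/+ pair and 5.30 and 5.08 FPKM in the Usp25-/- pair. Its log2 difference was -0.17, and the gap between the groups, from 5.30 to 5.43 FPKM, was smaller than the spread within Usp25+/+. Orc1, the largest subunit of that complex, was listed at 0.454, 0, 0.376 and 0.610 FPKM in WT-139, WT-140, KO-826, then KO-850, too low to test.

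The 4 helicase activation genes all had a higher mean log2 level in Usp25-/-, beside 53.6% of all tested genes. Their median difference was 0.32, or 0.14 without WT-139. Cdc45, which joins the ring to form the active helicase, stood at 2.84 and 3.51 FPKM in the Usp25+/+ pair and at 4.68 and 3.84 FPKM in the Usp25-/- pair, with no overlap (log2 difference 0.33). Gins1, a GINS subunit, stood at 1.51 FPKM in WT-139 and at 5.65, 5.64 and 6.32 FPKM in WT-140, KO-826 and KO-850. Its difference of 0.77 became 0.07 without WT-139, so it rested on that library. Gins2, of the same complex, showed the same shape, with 5.55 FPKM in WT-139 and 8.92, 9.05 and 8.84 FPKM in the others. Gins2 shares 2758 bases with Gse1 on the other strand. Mcm10, a scaffold that helps the helicase start, was the exception to the order of mice, with 3.03 FPKM in WT-139, 1.05 in WT-140, 1.94 in KO-826 and 2.23 in KO-850.

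**Figure D2:**
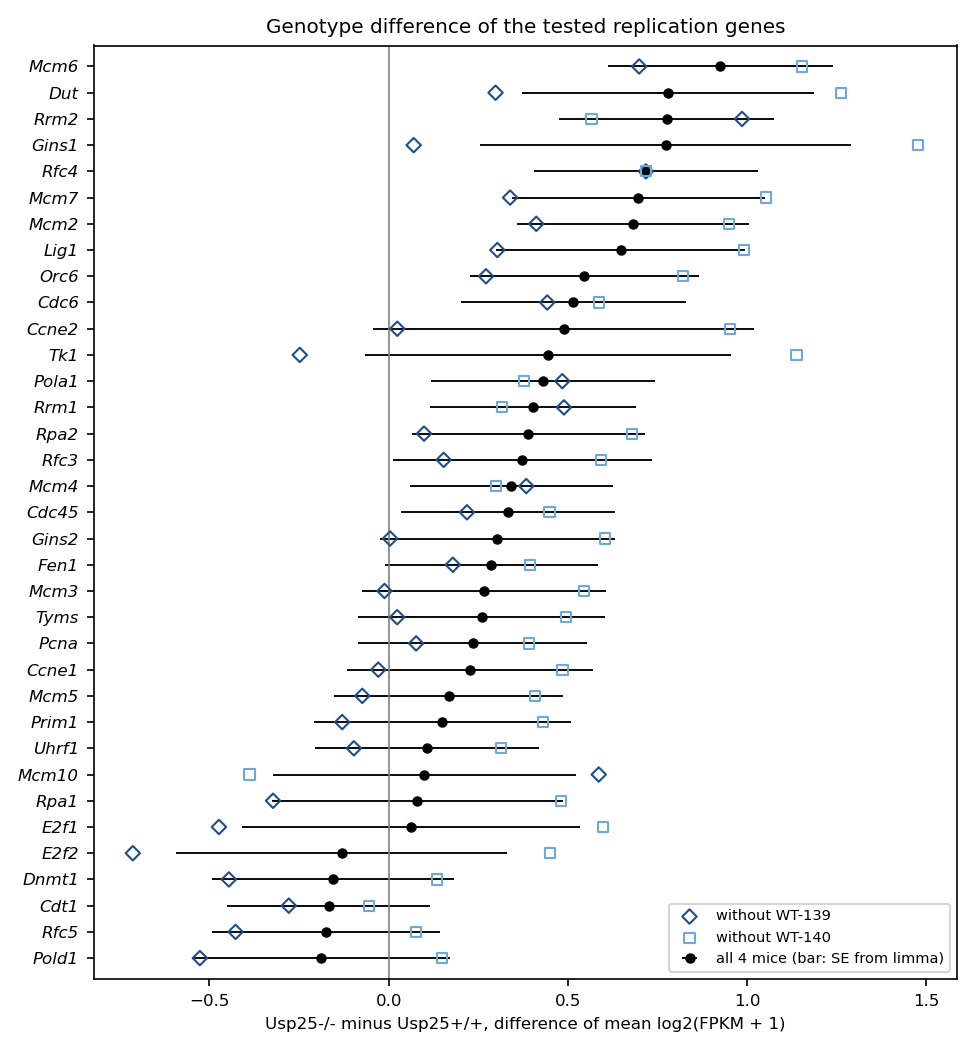
Genotype difference of each of the 35 tested genes, as Usp25-/- minus Usp25+/+ mean log2(FPKM + 1) on the horizontal axis, ordered by size on the vertical axis. Black points with bars are the estimate from all 4 mice and its limma standard error, and open symbols are the same difference with WT-139 or WT-140 left out: for Gins1, Dut and Tk1 the 2 open symbols lie far apart, and for Rfc4 they coincide.

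At the fork, 9 of 11 tested members had a higher mean log2 level in Usp25-/-, beside 53.6% of all tested genes. For 5 of them the groups did not overlap, beside 19.0% of all tested genes. The median difference was 0.29. Without WT-139 it was 0.10 and 7 of 11 were higher, beside 49.1% of all genes. Rfc4, a subunit of the clamp loader, stood at 4.02 and 4.03 FPKM in the Usp25+/+ pair and at 8.76 and 6.00 FPKM in the Usp25-/- pair. The Usp25+/+ mice were nearly equal and both Usp25-/- mice were higher, with a log2 difference of 0.72 ± 0.31 (SE, limma adjusted p = 0.968) that was also 0.72 without WT-139. Rfc4 maps to chromosome 16 from 23114016 to 23127810 (mm9, minus strand) and shares 194 bases with Eif4a2 on the other strand. The other loader subunits did not follow it. Rfc3 stood at 5.60, 7.95, 6.98 and 11.4 FPKM in WT-139, WT-140, KO-826, then KO-850 (0.37). Rfc5 stood at 5.58, 8.33, 5.60 and 6.30 FPKM (-0.17). WT-140 was above at least 1 Usp25-/- mouse in each.

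Pcna, the clamp itself, was the most abundant member in every mouse, at 113 and 141 FPKM in the Usp25+/+ pair and at 140 and 157 FPKM in the Usp25-/- pair. It made up 36.9% to 42.5% of the summed level of the tested members in a mouse. WT-140 and KO-826 were within 1 FPKM of each other, and the log2 difference of 0.23 became 0.08 without WT-139. Lig1, the ligase that seals Okazaki fragments, stood at 2.88 and 5.24 FPKM in the Usp25+/+ pair and at 6.97 and 6.44 FPKM in the Usp25-/- pair (log2 difference 0.65, or 0.30 without WT-139). Fen1, the nuclease that trims those fragments, stood at 9.91 and 11.7 FPKM against 11.7 and 15.2 FPKM (0.29). For Fen1 the groups were only just apart, with 11.67 FPKM in WT-140 and 11.73 FPKM in KO-826. The annotation places Gm10143 over 1909 and 1810006K21Rik over 130 of the bases of Fen1, on the other strand.

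Of the polymerases, Pola1, the catalytic subunit that starts new strands with primase, stood at 1.19 and 1.03 FPKM in the Usp25+/+ pair and at 1.62 and 2.08 FPKM in the Usp25-/- pair (log2 difference 0.43, no overlap). Prim1, the primase subunit, overlapped, at 3.39, 5.47, 3.99 and 6.00 FPKM in WT-139, WT-140, KO-826, then KO-850. Pold1, the catalytic subunit of polymerase delta, stood at 2.64, 4.81, 2.69 and 3.42 FPKM in that order, and its difference of -0.19 was the lowest of the set. WT-140 was the highest mouse for Pold1 and WT-139 the lowest, so the Usp25+/+ mice enclosed the Usp25-/- mice. Pole, the catalytic subunit of polymerase epsilon, did not exceed 0.589 FPKM. Rpa1 and Rpa2 encode subunits of the complex that coats bare single strands. Rpa1 stood at 8.90, 16.3, 10.4 and 15.8 FPKM (0.08) and Rpa2 at 5.15, 8.20, 8.75 and 8.95 FPKM (0.39) in the same order of mice. Rpa2 separated the groups by a small gap, and Rpa1 did not.

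All 5 nucleotide supply members had a higher mean log2 level in Usp25-/-, beside 53.6% of all tested genes. For 3 of them the groups did not overlap, beside 19.0% of all tested genes. The median difference was 0.44, or 0.30 without WT-139. Rrm2, the regulated small subunit of ribonucleotide reductase, stood at 6.88 and 4.89 FPKM in the Usp25+/+ pair and at 10.7 and 10.6 FPKM in the Usp25-/- pair. WT-140 was the lowest mouse here, and the log2 difference of 0.78 ± 0.30 (SE, limma adjusted p = 0.968) was larger, 0.99, without WT-139. Its unadjusted p was 0.0470, and Mcm6 and Rrm2 were the only members under 0.05. Rrm2 maps to chromosome 12 from 25393106 to 25399011 (mm9, plus strand). Rrm1, the large subunit, had the same order, with 10.7 and 9.39 FPKM in the Usp25+/+ pair and 12.3 and 15.0 FPKM in the Usp25-/- pair (0.40). These genes, with Mcm4, Mcm10 and Pola1, were the tested members with their lowest value in WT-140.

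Dut, which removes dUTP so that uracil does not enter DNA, stood at 2.03 and 4.91 FPKM in the Usp25+/+ pair and at 6.02 and 6.53 FPKM in the Usp25-/- pair. The groups did not overlap, and the log2 difference of 0.78 ± 0.41 (SE, limma adjusted p = 0.968) was 0.30 without WT-139, less by more than 1.5 times. Dut maps to chromosome 2 from 125072926 to 125084344 (mm9, plus strand). Tk1, the thymidine kinase of S phase, depended on the choice of mouse more than any other supply gene. It stood at 3.69 FPKM in WT-139 and at 11.2, 8.54 and 10.1 FPKM in WT-140, KO-826 and KO-850, so that its difference of 0.44 became -0.25 without WT-139. Tyms, thymidylate synthase, stood at 1.99, 3.14, 2.66 and 3.84 FPKM in that order and overlapped (0.26). The table also has a row for its pseudogene Tyms-ps, so reads may have been split between the copies. Besides the overlaps given with their genes, Orc1, Cdc45, Rfc5, Pole, Lig1, Tk1 and Tyms each share between 14 and 499 bases with an annotated gene on the other strand.

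The regulators of S phase entry did not separate the genotypes. Of the 4, 3 had a higher mean log2 level in Usp25-/- (53.6% of all tested genes), with a median difference of 0.15. Without WT-139 only 1 was higher (49.1% of all genes) and the median was -0.25. E2f1, an activating E2F factor, stood at 2.54, 6.45, 3.34 and 5.63 FPKM in WT-139, WT-140, KO-826, then KO-850, and E2f2, its relative, at 1.87, 5.43, 2.70 and 3.15 FPKM. WT-140 was the highest mouse for both and WT-139 the lowest, so each Usp25+/+ mouse lay outside the range of the Usp25-/- mice, on opposite sides. Ccne1, a cyclin that drives Cdk2 at the G1 to S transition, stood at 2.50, 4.002, 3.31 and 4.58 FPKM. Ccne2, the other E-type cyclin, stood at 0.214, 1.31, 0.639 and 2.36 FPKM and shares 609 bases with Ints8 on the other strand. Both cyclins were highest in KO-850 and lowest in WT-139.

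The maintenance methylation pair showed no difference beyond the spread between mice. Dnmt1, the enzyme that copies methylation onto new DNA, stood at 7.08, 11.1, 6.97 and 8.90 FPKM in WT-139, WT-140, KO-826, then KO-850, a log2 difference of -0.16. Uhrf1, which brings Dnmt1 to newly copied DNA, stood at 2.37, 3.48, 3.33 and 3.05 FPKM, a difference of 0.11. WT-140 was the highest mouse for each, and without WT-139 both differences were negative (-0.45 and -0.10).

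Across the set, limma's standard error exceeded the size of the difference for 19 of 35 members, and 10 members had a log2 difference above 0.5. Those 10 include Cdc6 (0.51), which passed the filter only through the Usp25-/- mice, and Gins1 (0.77, or 0.07 without WT-139). With each of the 4 mice left out in turn, 20 members kept a higher mean in Usp25-/- every time. Among them are the 15 that lay above with no overlap, which cannot change direction when 1 mouse is left out. The shares over all tested genes were not computed for the counts in this paragraph. Standard errors ran from 0.28 for Cdt1 to 0.53 for Ccne2, and differences from -0.19 for Pold1 to 0.93 for Mcm6. For groups of 2 and 2 the smallest p an exact permutation test can give 1 gene is 0.333, and limma's p-values cover only how these 4 mice varied.

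**Figure D3:**
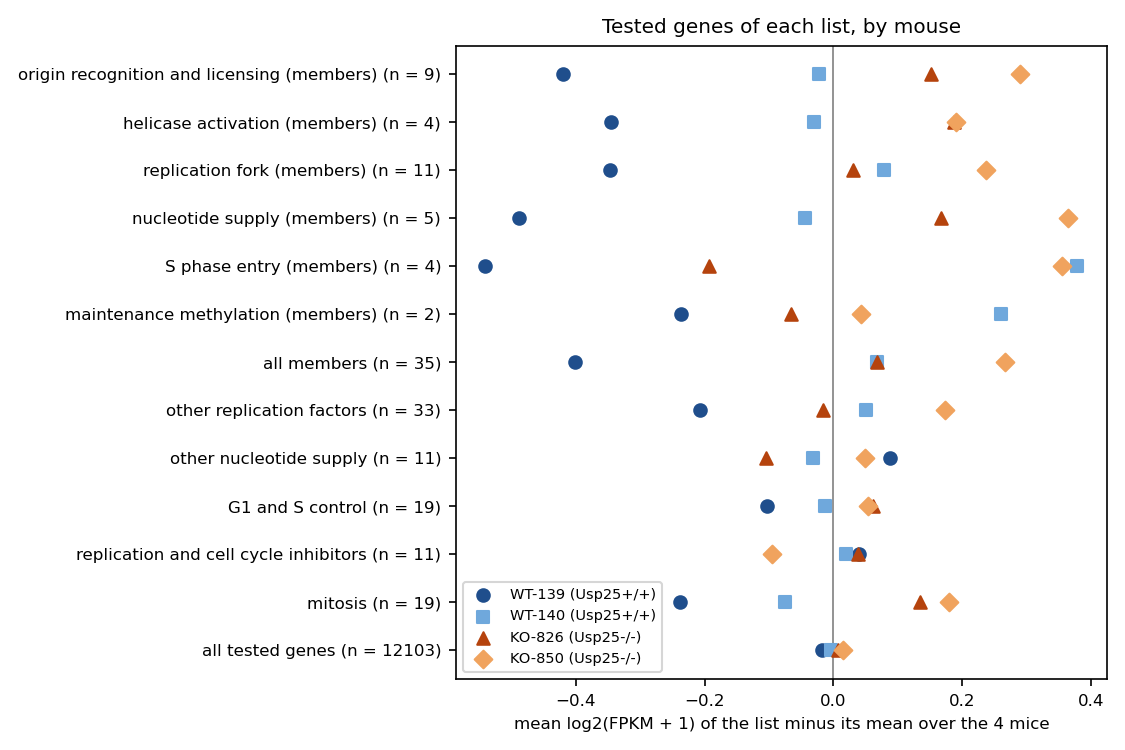
Mean log2(FPKM + 1) of the tested genes of each list in each mouse, on the horizontal axis as the difference from the list's mean over the 4 mice, with lists and their number of tested genes on the vertical axis. Points are mice: WT-139 is the lowest for all 6 role groups of replication genes, WT-140 is within or above the Usp25-/- mice for fork, S phase entry and methylation genes, and all tested genes together lie near 0.

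The 4 lists of other genes of replication, nucleotide supply, S phase control and its inhibitors had medians between -0.03 and 0.17 with all mice, beside 0.33 for the members, and the difference between lists was not tested. Without WT-139 the members' median was 0.08 and those of the other lists lay between 0.06 and 0.12. Of all tested genes 53.6% had a higher mean log2 value in Usp25-/- with all mice. Of 40 other replication factors, 33 were tested, and 0 were called. Of these 20 had higher and 13 lower mean log2 values in Usp25-/-, with a median difference of 0.13, or 0.06 without WT-139. Tipin, a fork protection factor, stood at 4.88 and 5.49 FPKM in the Usp25+/+ pair and at 9.48 and 9.65 FPKM in the Usp25-/- pair (log2 difference 0.77). Rpa3, the smallest subunit of the complex formed with Rpa1 and Rpa2, stood at 9.95 and 11.03 FPKM against 23.2 and 16.6 FPKM (0.85). Both separated the groups, with differences of 0.70 and 0.78 without WT-139, and adjusted p was 0.968 by limma for each. Tipin and Rpa3 were named because their limma p was the smallest of this list. Of the 33 genes, 9 separated the groups with Usp25-/- higher (19.0% of all tested genes) and 2 with Usp25-/- lower (14.7%).

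Of 11 other nucleotide supply genes tested, 6 were higher and 5 lower, with a median log2 difference of 0.03, or 0.09 without WT-139. Samhd1, which breaks down deoxynucleotides, stood at 168 FPKM in WT-139 and at 51.8, 26.7 and 48.0 FPKM in WT-140, KO-826 and KO-850, a log2 difference of -1.36, or -0.52 without WT-139. Of 19 genes of G1 and S control, 13 were higher, with a median of 0.17, or 0.12 without WT-139. Ccnd1, cyclin D1, stood at 18.0 and 19.0 FPKM in the Usp25+/+ pair and at 27.1 and 32.1 FPKM in the Usp25-/- pair (0.65, or 0.61 without WT-139). Of 11 replication and cell cycle inhibitors, 5 were higher and 6 lower (median -0.03, or 0.07 without WT-139). Gmnn, which binds Cdt1 and blocks a further round of licensing, stood at 14.0 and 18.1 FPKM against 23.7 and 24.1 FPKM (0.56), opposite in sign to Cdt1 itself. None of these lists had a called gene, and the gene named from each was the one with its smallest limma p.

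Genes of mitosis had much the same median as the replication genes. Of 19 tested, 17 had a higher mean log2 level in Usp25-/- (53.6% of all tested genes), with a median of 0.34. Without WT-139 14 were higher (49.1% of all genes), with a median of 0.28, beside 0.08 for the replication genes. Ube2c, an enzyme that helps cells leave mitosis, had the smallest limma p of this list. Its levels were 5.02 and 7.65 FPKM in the Usp25+/+ pair and 17.6 and 9.59 FPKM in the Usp25-/- pair (0.96). Mki67, the proliferation marker Ki-67, chosen here after its values were seen, went against the order of the replication genes. It was highest in WT-139, at 11.2 FPKM, against 3.57, 4.50 and 4.89 FPKM in WT-140, KO-826 and KO-850.

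Mean levels of markers of some cell types differed between the genotypes or in WT-139, and no marker gene was called. All 8 general epithelial genes (Epcam and cytokeratins among them) had a higher mean log2 level without Usp25, with a median difference of 1.36. Their summed levels were 935 and 785 FPKM in the Usp25+/+ pair and 3620 and 1346 FPKM in the Usp25-/- pair. Genes of alveolar and airway epithelium were mixed. Of 11 tested, 7 were higher and 4 lower, with a median of 0.10, or -0.31 without WT-139. Summed levels of the 7 neutrophil genes in the table were 40228 and 711 FPKM against 1982 and 1178 FPKM. The genes Mpo and Elane, which mark early neutrophil precursors that still divide, reached at most 0.404 and 0.648 FPKM. Prtn3, of the same stage, stood at 1.28 and 0 FPKM in the Usp25+/+ pair and at 1.14 and 2.19 FPKM in the Usp25-/- pair. The sum over all 7 genes of immature neutrophils, granule genes of later stages included, was 1663 FPKM in WT-139 and 52.4 to 121 FPKM in the other mice. Of 6 fibroblast genes 5 had a higher mean in Usp25-/- (median 0.61 with and without WT-139), with a sum of 118 FPKM in KO-850 and 43.8 to 51.9 FPKM in the other mice. All 7 macrophage genes had a lower mean in Usp25-/- (median -0.39), beside 5619 of all 12103 tested genes that were lower. The macrophage median was -0.55 without WT-139, with 6 of 7 lower, but 0.13 without WT-140. Macrophage sums were 1027 and 1562 FPKM against 898 and 999 FPKM. All 5 endothelial genes were lower too, with a median of -0.39, or -0.85 without WT-139 but 0.07 without WT-140. Endothelial sums were 65.0 and 123 FPKM against 46.1 and 91.1 FPKM. The part of these cell types in the levels of the replication genes was not tested.

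The deviation of WT-139 from the other mice also varied with transcript length. Of 12103 tested genes, 11031 (91.1%) have an annotated length, as do all 35 tested members. Over these genes the median deviation of WT-139 from the mean of the other 3 mice, on the log2(FPKM + 1) scale, was -0.45 in the shortest quartile of transcripts and -0.21, -0.04 and 0.19 in the following ones. For members the medians in the same quartiles were -0.65 (5 genes), -0.52 (10 genes), -0.47 (13 genes) and -0.44 (7 genes). The median of the members was below that of all genes in each quartile, with the widest gap among the longest transcripts. Over all lengths the median was -0.49 for the members and -0.10 for all genes. The part of length in the members' values was not tested.

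**Figure D4:**
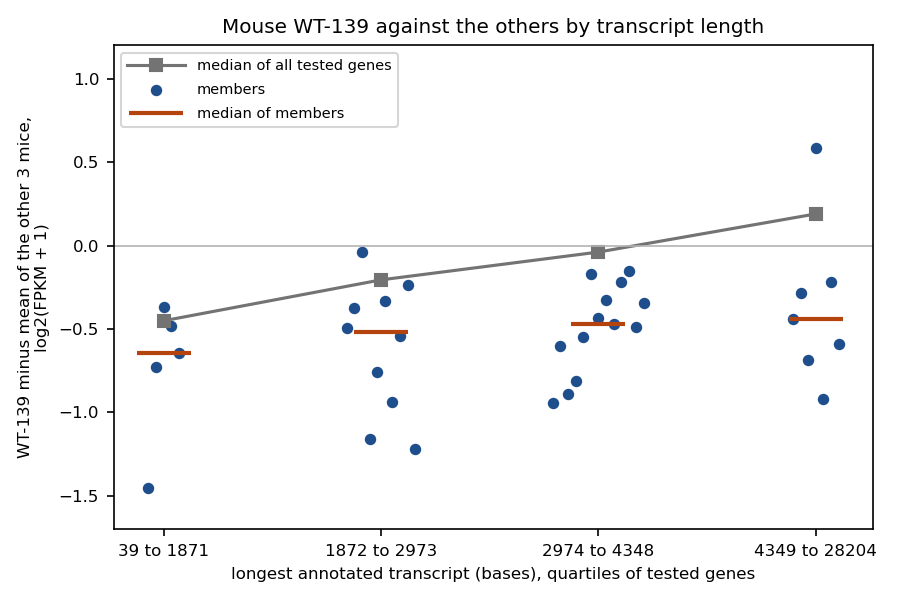
Deviation of WT-139 from the mean of the other 3 mice, with the log2(FPKM + 1) difference as the vertical axis, by quartile of the longest annotated transcript on the horizontal axis. Grey squares are the median of all tested genes, dots are the 35 tested replication genes and bars are their median: the squares run from -0.45 to 0.19, and the bars stay between -0.65 and -0.44.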

How the data were processed

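Polyadenylated RNA from 4 mice was sequenced by the Illumina TruSeq method, per the labels' protocols. The authors deposited FPKM values, 1 column for each mouse; Bowtie 0.12.2 and build mm9 are named in the submitters' processing notes. The depth is unknown; quantifier, annotation and strandedness were not given in the sources used here. Symbols turned into dates (27 of 24421 rows) were left out. Genes with at least 1 FPKM in at least 2 mice were compared on log2(FPKM + 1), a scale that understates differences of low genes. R 4.3.3 and limma 3.58.1 were used (mean-variance trend, two-sided, Benjamini-Hochberg over all tested genes, threshold 0.05). The fit was tested on simulated data in which every gene had the same spread, so this does not show which real changes it can call. A difference is Usp25-/- minus Usp25+/+.

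The members and gene lists were chosen with earlier results of these data known. Every member is accounted for. Errors and adjusted p are given for the 6 members with the smallest p, and for any lower by more than 0.3, of which there were 0. Of other lists up to 4 genes with the smallest p could be named. Gene positions and lengths are from Gencode for mm9 and promoters from RefSeq for GRCm38.p6. Motifs were searched on both strands, and 170 bases before the start site were printed. Python 3.11.15, pandas 2.3.3 and matplotlib 3.10.9 were used. Alternatives covered the pseudocount, filter, scaling, variance model, threshold and leaving out each mouse.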

Additional observations from a re-analysis of the deposited data

How the results depend on the processing

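The deposited values hold no read counts, so depth cannot be used to weigh low members such as Cdc6, Orc1 and Pole. Under a pseudocount of 0.1 FPKM, no filter, a filter of 5 FPKM, 3 scalings, no variance trend and a threshold of 0.1, no member was called, and members higher in Usp25-/- stayed at 30 of 35 (31 of 37 without a filter, 22 of 25 with the stricter one). Leaving out 1 mouse moved the results. The count of all genes called went from 0 to 92, with 92 without WT-140 and 0 without any other mouse. The count of members higher in Usp25-/- went from 22 (without WT-139) to 33 (without WT-140), and 0 were called each time. The count of members with both groups apart and Usp25-/- higher, 15 with all mice, went from 16 to 32, with 24 without KO-826 and 32 without WT-140, as a lone mouse overlaps less often by construction. The share of all genes was then 35.7% without WT-139, 45.8% without WT-140, 30.5% without KO-826 and 31.7% without KO-850, beside 19.0% with all mice. Leaving out genes that passed the filter through 1 genotype only was chosen after seeing the data and gave 29 higher, 14 apart and a median of 0.32. The median log2 difference of the members, 0.33, went from 0.08 (0.0766, without WT-139) to 0.49 (0.495, without WT-140). In such fits the lone mouse was assumed to vary like the other group. For the 6 members with the smallest p, 66 of 66 values under the alternatives kept their direction. The groups of these 6 did not overlap, so leaving out 1 mouse could not reverse them. The filters and the variance model do not change a difference either, so this count is no added support. No paired analysis was possible because the labels' mouse numbers pair no animals across genotypes.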
